A study of Homo sapiens with 42 samples.

Results

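The transcripts described here are those of POLR3G, POLR3GL and MAF1, 3 genes that set which form of RNA polymerase III a cell holds and how far that enzyme is repressed. They were taken by gene: 16 transcripts of these genes have a row among the 158359 transcripts that could be given a gene name, 6 of POLR3G (ENSG00000113356), 4 of POLR3GL (ENSG00000121851) and 6 of MAF1 (ENSG00000179632), and a further POLR3G model of the annotation, POLR3G-203, was not analysed here. RNA polymerase III makes transfer RNA, 5S ribosomal RNA and other short RNAs. POLR3G and POLR3GL are paralogs that encode alternative forms of its subunit RPC7, which sits in a heterotrimer with POLR3C (RPC3) and POLR3F (RPC6) and takes part in initiation. POLR3G is known from stem, embryonic and tumour cells and POLR3GL from most differentiated tissues, while MAF1 binds the polymerase and represses it when growth signals or nutrients fall.

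Poly(A) RNA of 2 established human lines was sequenced in 42 libraries, 3 in each of 14 groups. HEK293T cells, an embryonic kidney line carrying SV40 large T antigen, were transfected for 48 h in 4 experiments: with a POLR3G antisense oligonucleotide (ASO) or a scramble ASO at 200 nM, with a POLR3G siRNA or a control siRNA at 200 nM, with 1 of 3 POLR3GL siRNAs named siE4, siE6 and siE8 or a control siRNA at 25 nM, and for overexpression (OE) of MAF1 or of eGFP. THP-1 cells, a monocytic leukaemia line, received DMSO, the Pol III inhibitor ML-60218 at 25 uM for 4 h, the protein synthesis inhibitor cycloheximide (CHX) at 10 ug/ml for 4.5 h, or both. The labels give no target position for any oligonucleotide, no sequence or vector of the overexpressed MAF1, and do not say that replicates were separate cultures, so each p-value measures the spread between these libraries, which may be technical. Libraries held 32705684 to 52568088 estimated reads. Of 10 monocytic marker genes 10 were above 1 CPM in THP-1 and 2 in HEK293T, and of 8 genes listed to mark HEK293T 1 and 7 were. Among these 8, LIN28B and CDH2 were highest in HEK293T (means of 212 and 167 CPM), while EPCAM was at 2.57 and LHX1 at 0.721. In bulk RNA, fewer cells with a transcript and less of it per cell cannot be told apart.

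Levels are given as estimated reads of a transcript, as CPM or as TPM. CPM is a gene's estimated reads scaled to the library total after edgeR's TMM scaling. TPM divides by transcript length and has no TMM scaling. It is the scale used to compare 1 gene or transcript with another, except where the share or sum of the paralogs is given over estimated counts. A gene or transcript is said to have risen or fallen where edgeR's quasi-likelihood test over all features gave a Benjamini-Hochberg adjusted p under 0.05. A share is a transcript's part of its gene's TPM.

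The annotation separates the transcripts as follows. POLR3G-204 and POLR3G-201 are full-length models with 8 exons and 669 coding bases each. POLR3G-207 has 4 exons, ends in an exon of its own with its own stop codon, and codes for 300 bases. That exon is what reads can use to tell the short form from the full-length ones. Its coding part is shown first, with the stop codon in capitals, beside the coding exon that POLR3G-204 uses instead. The rest of the exon, up to the transcript's end at chr5:90490858, is not shown. The first lies at chr5:90490593-90490648 and the second at chr5:90495677-90495733, both on the plus strand of GRCh38 (GENCODE 29).
POLR3G-207 last coding exon: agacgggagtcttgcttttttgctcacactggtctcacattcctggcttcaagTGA
POLR3G-204 coding exon at the same place: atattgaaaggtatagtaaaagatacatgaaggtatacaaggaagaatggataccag

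POLR3GL-202 is the full-length model of POLR3GL, with 8 exons and 654 coding bases. POLR3GL-201 lacks a coding exon of 69 bases, shown next, which lies at chr1:145977084-145977152 on the plus strand and leaves 585 coding bases. POLR3GL-203 and POLR3GL-204 are annotated as retained-intron transcripts without a coding sequence.
POLR3GL-202 exon absent from POLR3GL-201: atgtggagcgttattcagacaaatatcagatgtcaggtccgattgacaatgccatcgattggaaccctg

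Whether reads of the paralogs can be told apart bears on every comparison between them. Their full-length coding sequences were identical at 392 of 629 aligned bases (62.3%), with no identical run longer than 14 bases, and the transcripts of POLR3G and POLR3GL share 0 stretches of 31 bases. The 60-base window in which they are most alike is shown with the bases that differ, 10 of 60, in capitals. It covers coding positions 562 to 621 of POLR3G-204 and 547 to 606 of POLR3GL-202, counted from the start codon, and spans a junction of exons in both (chr5:90506651-90506674 and chr5:90512053-90512088; chr1:145978073-145978096 and chr1:145978361-145978396, plus strand).
POLR3G-204 window: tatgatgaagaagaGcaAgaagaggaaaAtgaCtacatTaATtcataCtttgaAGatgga
POLR3GL-202 window: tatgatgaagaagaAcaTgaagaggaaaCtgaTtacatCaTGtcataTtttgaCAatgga
Other genes share more with the members. AC243547.3, which overlaps POLR3GL on the same strand, holds 297 of the 1909 distinct 31-base stretches of POLR3GL transcripts and had 3.15 to 34.1 estimated reads per library. POLR3GP2, a pseudogene by its symbol, holds 129 of 3985 from POLR3G and was listed at 0 in all 42 libraries. MAF1-201 and MAF1-204 share all coding exons (768 bases) and differ in the first exon and the 3′ end, so only 13 of 1647 stretches are specific to MAF1-201 and 3 of 1068 to MAF1-204. MAF1-205, which keeps the intron between the fifth and the sixth exon of MAF1-201, codes for 858 bases and, like MAF1-202, has 0 stretches of its own. How reads were split among MAF1 transcripts is therefore less certain than the gene total: MAF1-202 was at 0 in 36 of 42 libraries and reached 182 reads in others.

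POLR3G is the member that differed most between the cell lines. Its gene-level TPM was highest in control siRNA at 25 nM (21.8 ± 0.834, SD, n = 3), control siRNA at 200 nM (21.3 ± 2.85) and eGFP OE (21.0 ± 1.58), and these 3 groups overlapped. The scramble ASO group was lower, at 14.6 ± 2.31 TPM, and did not overlap the MAF1 OE group next above it in the order. In THP-1, POLR3G was at 0.599 to 0.954 TPM in the 4 group means, and each group overlapped its neighbours in the order. POLR3G-204 was listed at 0 reads in 1 of 3 libraries in each of DMSO, ML-60218 and CHX and at 77.9 in another DMSO library, so POLR3G is near the limit of this depth in THP-1 and no direction is read from it there.

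POLR3GL was present in both lines and higher in THP-1. Group means ran from 43.6 ± 1.07 TPM with ML-60218 to 67.1 ± 2.98 with CHX in THP-1, against 27.8 ± 2.02 (scramble ASO) to 35.4 ± 2.44 (control siRNA at 25 nM) in HEK293T controls, and the lowest THP-1 group did not overlap the highest HEK293T group. MAF1 lay between 42.8 and 67.5 TPM in 12 of the 14 group means, with MAF1 OE at 3818 ± 230 above them and POLR3G siRNA at 11.0 ± 0.764 below them. From rank 2 to rank 11 each group overlapped its neighbours in the order. Cell line and experiment cannot be told apart in these differences, so no test is given.

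**Figure D1:**
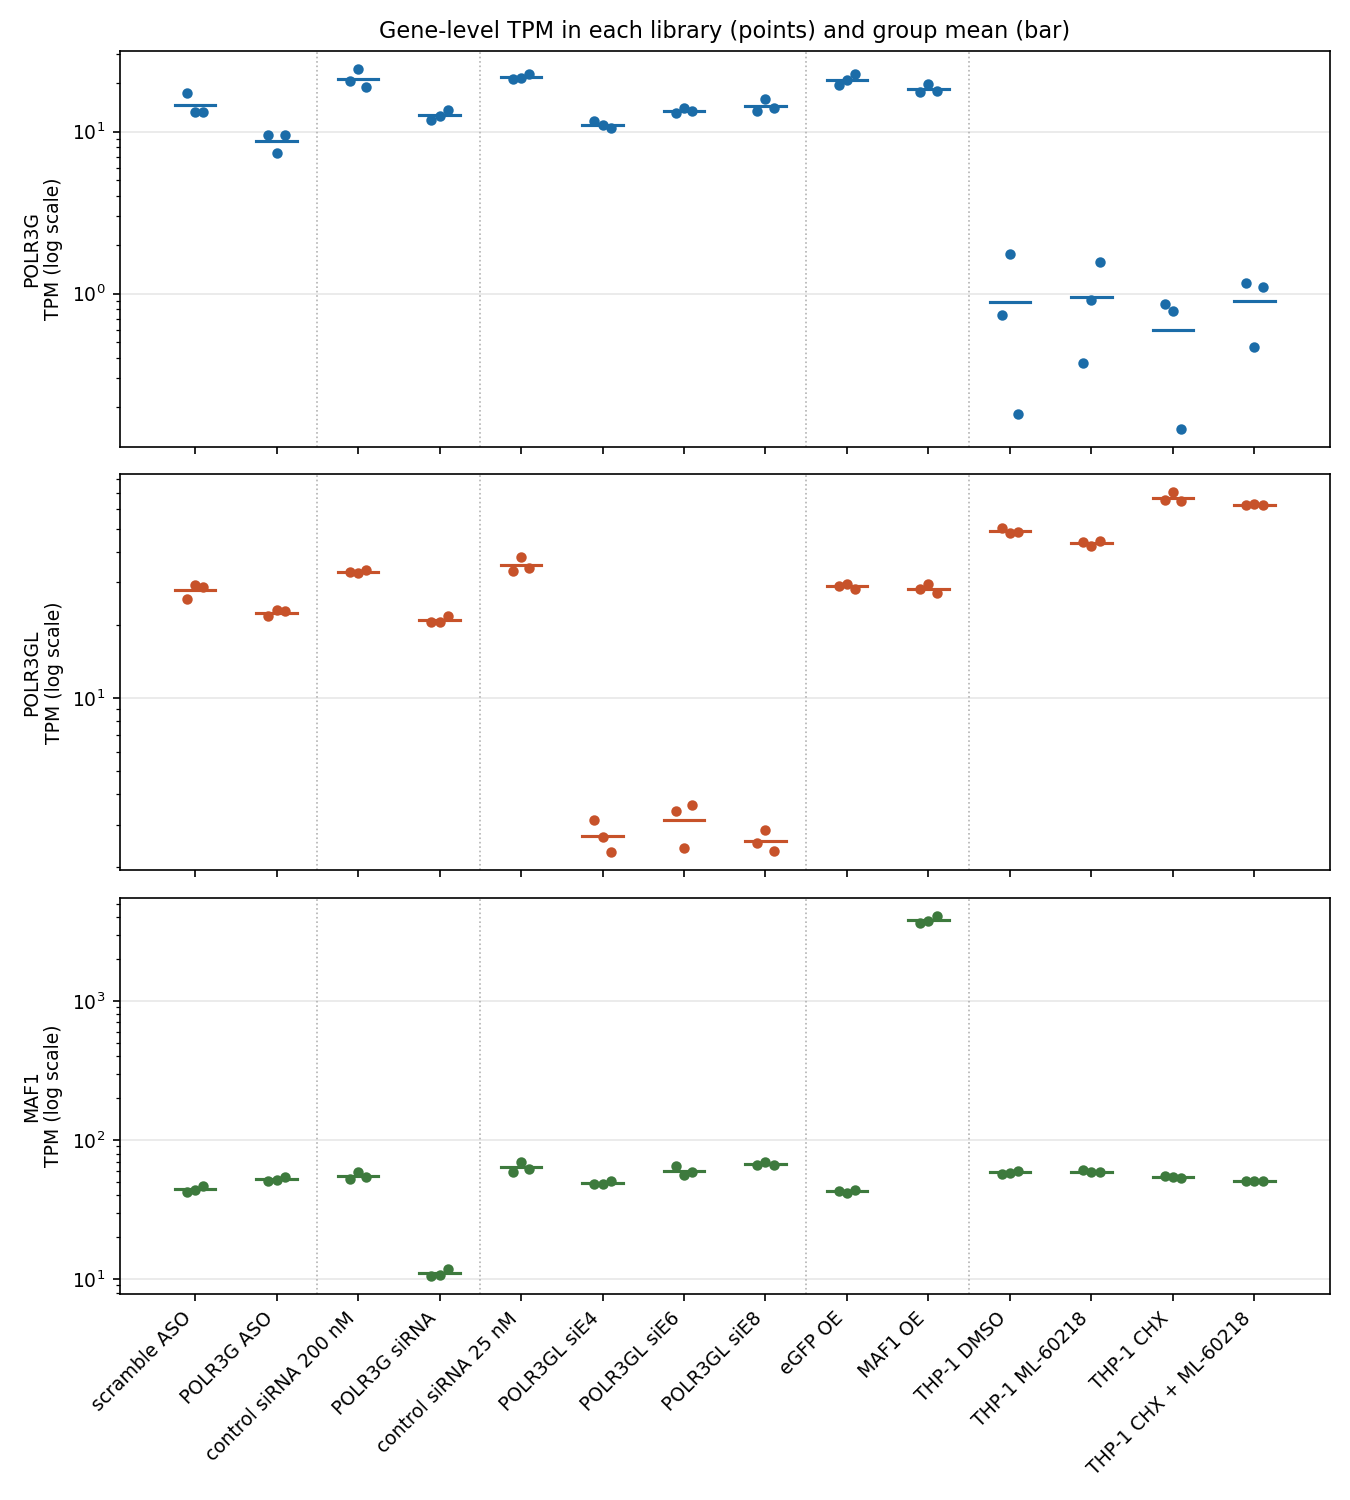
TPM of POLR3G, POLR3GL and MAF1 (rows, log axes) in each of the 42 libraries (points) with group means (bars), ordered by experiment with dotted lines between experiments. POLR3G lies between 7.40 and 24.5 TPM in HEK293T and at or under 1.77 in THP-1, POLR3GL lies between 2.30 and 3.60 TPM under the POLR3GL siRNAs, and MAF1 is lowest under the POLR3G siRNA.

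The first question of the knockdowns is what each agent did to the transcripts of its target. Both POLR3G agents lowered the full-length transcript POLR3G-204 and left the short transcript POLR3G-207 at a level that did not pass the test. POLR3G-204 had 764, 596 and 630 estimated reads with the scramble ASO and 262, 162 and 195 with the POLR3G ASO. The groups did not overlap, and the fold change was -1.66 on the log2 scale (SE 0.20, 3.16-fold, adjusted p = 0.00289). With the siRNA it had 499, 369 and 543 reads against 1064, 1522 and 1177 in the control. Again the groups were apart, with a log2 fold change of -1.36 (SE 0.22, 2.57-fold, adjusted p = 0.00493).

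POLR3G-207 had 75.0, 55.0 and 56.3 reads with the scramble ASO and 46.4, 47.3 and 58.7 with the POLR3G ASO, 2 overlapping groups (log2 -0.26, SE 0.23, adjusted p = 0.492). With the POLR3G siRNA it had 79.7, 105 and 82.8 reads against 68.6, 50.3 and 60.9. All 3 siRNA libraries were above all 3 controls, but the difference did not pass the test (log2 0.61, SE 0.20, adjusted p = 0.0709). Its share of POLR3G TPM was 38.5, 36.2 and 37.9% with the scramble ASO and 48.0, 62.8 and 64.6% with the POLR3G ASO. In the siRNA experiment the share was 29.9, 17.6 and 26.7% in controls and 54.1, 63.1 and 52.7% under the POLR3G siRNA. The groups did not overlap in either experiment, yet the edgeR test of transcript usage, which asks whether a transcript moved apart from the rest of its gene, called no POLR3G transcript (POLR3G-207, adjusted p = 0.739 and 0.144). It had 46.4 to 105 reads per library here, so its shares rest on few reads.

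The size of the knockdown therefore depends on what is counted. Summed over all its transcripts, POLR3G fell 2.81-fold with the ASO (log2 -1.49, SE 0.16, adjusted p = 3.48e-05) and 2.38-fold with the siRNA (log2 -1.25, SE 0.15, adjusted p = 4.71e-05). Per length, where the short transcript weighs more, gene TPM was 8.83 ± 1.24 against 14.6 ± 2.31 with the ASO and 12.7 ± 0.905 against 21.3 ± 2.85 with the siRNA. The full-length models POLR3G-201 and POLR3G-204 together kept 33.8% of their control TPM with the ASO (2.84 ± 0.849 against 8.40 ± 1.32) and 34.9% with the siRNA (5.21 ± 1.25 against 15.0 ± 3.27). This full-length sum was chosen after the level of POLR3G-207 had been seen. The difference between the ASO and the siRNA response of POLR3G did not pass the test (log2 -0.27, SE 0.25, adjusted p = 0.356).

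**Figure D2:**
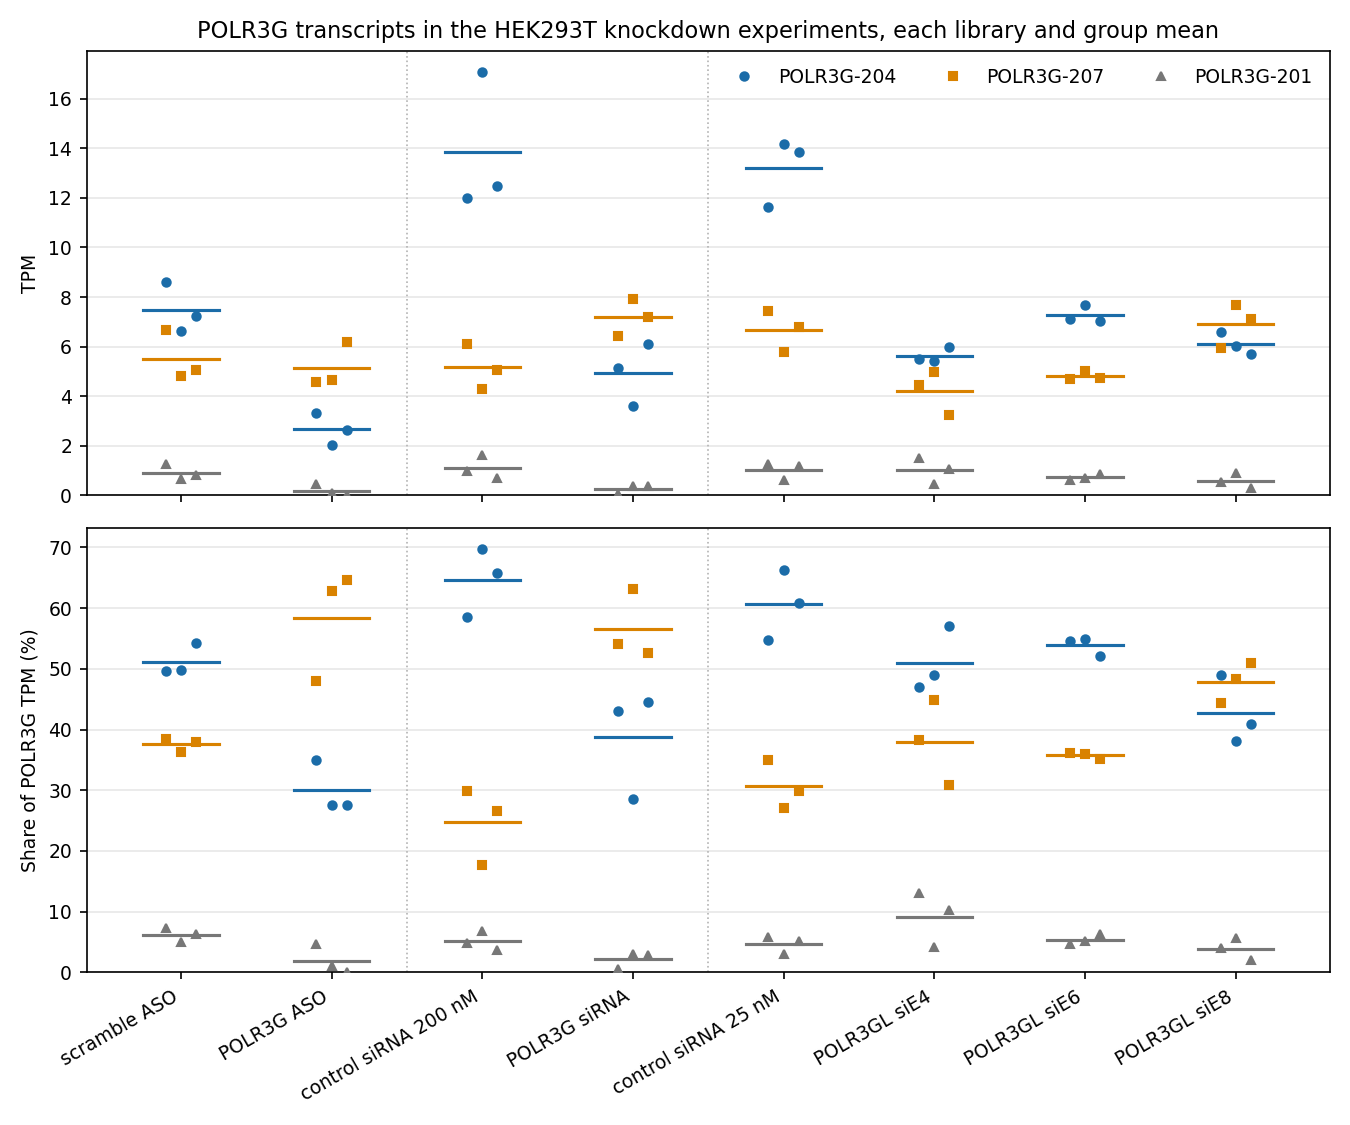
TPM (upper panel) and share of POLR3G TPM in % (lower panel) of 3 POLR3G transcripts in the 8 HEK293T knockdown groups, with points for libraries and bars for group means. POLR3G-204 drops under the ASO, the siRNA and all 3 POLR3GL siRNAs, while POLR3G-207 holds 52.7 to 63.1% of POLR3G TPM under the POLR3G siRNA against 17.6 to 29.9% in its controls.

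These calls stand against a wide background. Of all genes tested 68.5% were called with the ASO and 74.9% with the POLR3G siRNA, and of all transcripts 24.6% and 32.5%. Of the 11 member transcripts kept by the filter, 3 fell with the ASO and 6 with the siRNA, and 0 rose. Transcript usage was called for 2.62% and 3.38% of transcripts in these experiments and for 0 of the 11 members (0 and 1 at an unadjusted p under 0.05).

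All 3 POLR3GL siRNAs lowered the full-length POLR3GL-202 by about the same amount. It had 1172, 1246 and 1195 reads in the control libraries, 88.0, 90.4 and 78.7 with siE4, 96.9, 97.5 and 130 with siE6, and 89.5, 85.7 and 86.0 with siE8. Every siRNA library was below every control, and the falls were 13.3-fold (log2 -3.73, SE 0.18, adjusted p = 7.57e-07), 12.2-fold (log2 -3.60, SE 0.17, adjusted p = 5.39e-07) and 12.6-fold (log2 -3.65, SE 0.18, adjusted p = 4.73e-07). POLR3GL-201, the form without the exon shown above, had 83.2 to 104 reads in controls and 0 in 5 of the 9 siRNA libraries, with at most 14.1 in the others. No fold is given for it, and it passed the test with siE8 (adjusted p = 0.0354) but not with siE4 (0.0752) or siE6 (0.0839). The siE8 call was lost on leaving out 7 of the 12 libraries in turn.

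The retained-intron transcripts had few reads. POLR3GL-203 had 25.6, 29.6 and 32.6 reads in controls, 13.4, 11.3 and 12.6 with siE4, 22.2, 5.72 and 16.8 with siE6, and 4.88, 3.98 and 2.01 with siE8. It fell 7.22-fold with siE8 (adjusted p = 0.00623) and did not pass with siE4 (log2 -1.19, SE 0.52, adjusted p = 0.188) or siE6 (log2 -1.07, SE 0.52, adjusted p = 0.209). POLR3GL-204 had 16.9 to 22.6 reads in controls and 1.60 to 6.22 with siE8, with a 4.46-fold fall under siE8 (adjusted p = 0.0167, lost on leaving out the third siE8, the first control or the second control library, at 0.0665, 0.0507 and 0.0542, and without the filter on low counts, at 0.0559) and log2 changes of -1.21 and -1.05 that did not pass under siE4 and siE6. The share of POLR3GL-203 in POLR3GL TPM was 3.80% ± 0.462 in controls, 19.3% ± 1.71 with siE4, 17.7% ± 9.88 with siE6 and 6.69% ± 2.55 with siE8. Whether the siRNAs differ from each other at these transcripts was not tested, usage was called for none of the members (adjusted p = 0.475 and 0.428 for POLR3GL-203 with siE4 and siE6), and the counts are small.

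**Figure D3:**
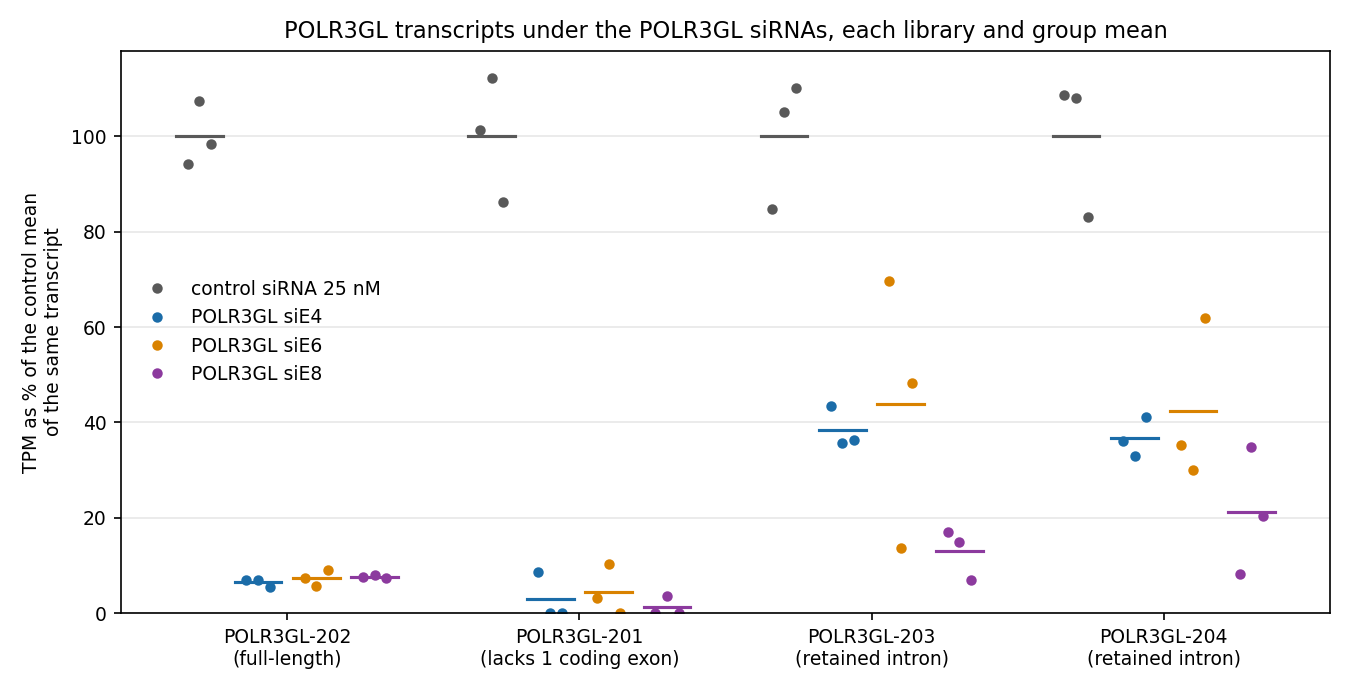
TPM of the 4 POLR3GL transcripts in each library of the POLR3GL experiment, as a percentage of the control mean of the same transcript (points), with group means (bars). The full-length POLR3GL-202 is far below its controls with every siRNA, at most 2.72 TPM in any siRNA library, and the retained-intron transcripts are lowest with siE8.

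Summed over transcripts, POLR3GL fell 11.8-fold with siE4 (log2 -3.56, SE 0.13, adjusted p = 3.31e-10), 10.2-fold with siE6 (log2 -3.35, SE 0.13, adjusted p = 3.17e-10) and 13.1-fold with siE8 (log2 -3.71, SE 0.14, adjusted p = 1.46e-10). The 3 siRNAs were compared directly as well. POLR3GL was higher with siE6 than with siE8 (log2 0.36, SE 0.14, adjusted p = 0.0401), although their libraries overlapped, and leaving out 1 library ended that call in 6 of 12 cases. The other pairs did not pass (siE4 minus siE6 log2 -0.22, SE 0.14, and siE4 minus siE8 log2 0.14, SE 0.15). Of all genes 54.9%, 63.0% and 57.7% were called against the control with siE4, siE6 and siE8, and 14.2%, 17.9% and 15.9% of transcripts. Among the 11 member transcripts tested, 1 rose and 3 fell with siE4, 1 rose and 2 fell with siE6, and 1 rose and 5 fell with siE8. Usage was called for 1.30%, 1.74% and 1.56% of transcripts and for 0 of the 11 members with each siRNA (3, 3 and 2 at an unadjusted p under 0.05).

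A rise of the untargeted paralog was looked for in each knockdown, and in all 5 the paralog fell. With the POLR3G ASO, POLR3GL-202 had 608, 693 and 585 reads against 859, 976 and 969, without overlap (log2 -0.55, SE 0.08, 1.46-fold, adjusted p = 0.00637). With the POLR3G siRNA it had 683, 821 and 713 against 1055, 1142 and 1284, again without overlap (log2 -0.61, SE 0.07, 1.52-fold, adjusted p = 0.00124). POLR3GL-203 and POLR3GL-204 fell with the siRNA (2.14-fold and 2.44-fold, adjusted p = 0.0445 and 0.0241). Both calls were lost on leaving out 5 of the 6 libraries in turn, without the filter on low counts (adjusted p = 0.12 and 0.0884) and with the replicate block (0.118 and 0.0888). At the gene level POLR3GL fell 1.36-fold with the ASO and 1.49-fold with the siRNA (adjusted p = 0.000186 and 7.91e-07), and these responses did not differ past the threshold (log2 0.10, SE 0.07, adjusted p = 0.253). On the TPM scale that difference was larger and passed (log2 0.35 by limma, adjusted p = 0.00111), with the median of all genes at 0.38.

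In the other direction, POLR3G-204 fell with each POLR3GL siRNA. It had 1005, 1098 and 1165 reads in controls, 485, 500 and 596 with siE4, 665, 905 and 697 with siE6, and 538, 448 and 474 with siE8. No siRNA library reached the lowest control, and the falls were 1.98-fold (log2 -0.99, SE 0.10, adjusted p = 7.76e-05), 1.60-fold (log2 -0.67, SE 0.10, adjusted p = 0.000616) and 2.05-fold (log2 -1.04, SE 0.10, adjusted p = 4.27e-05). POLR3G-207 did not pass the test with any of them (adjusted p = 0.265, 0.419 and 0.811), but it fell with siE4 by limma on log2(TPM + 0.1) (log2 -0.66, adjusted p = 0.0168). Its share of POLR3G TPM was 30.6% ± 4.08 in controls and 47.9% ± 3.32 with siE8, without overlap of the libraries, and usage was not called.

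The siRNAs differed in how far the paralog fell. POLR3G as a whole gene was lower with siE4 and with siE8 than with siE6 (siE4 minus siE6 log2 -0.28, SE 0.08, adjusted p = 0.00698, and siE6 minus siE8 log2 0.37, SE 0.08, adjusted p = 0.00121). The first call was lost with all HEK293T libraries in 1 fit (log2 -0.29, adjusted p = 0.0837), and the second with a length offset (log2 0.070, adjusted p = 0.525). Between siE4 and siE8 it did not differ past the threshold (log2 0.09, SE 0.08, adjusted p = 0.375). On the TPM scale the order is another: POLR3G was at 11.1 ± 0.593 TPM with siE4, 13.5 ± 0.483 with siE6 and 14.4 ± 1.27 with siE8. By limma on log2(TPM + 0.1) the siE6 minus siE8 difference turned its sign (log2 -0.09, adjusted p = 0.303). The siE4 minus siE8 difference turned its sign there too and passed (log2 -0.38, adjusted p = 0.000685), with the median of all genes at -0.18. With a length offset it was -0.20 and did not pass (adjusted p = 0.078). The TPM of siE8 holds 6.91 ± 0.870 of POLR3G-207, against 4.82 ± 0.176 in siE6. In these 3 pairs of siRNAs 64.8%, 63.0% and 64.2% of all genes were called, in the order siE4 minus siE6, siE4 minus siE8 and siE6 minus siE8, and 2, 1 and 2 of the 3 members.

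Added per length, the 2 paralogs gave 42.5 ± 0.509 TPM with the scramble ASO, 54.4 ± 2.53 and 57.2 ± 2.38 with the control siRNAs at 200 and 25 nM, and 49.9 ± 1.28 with eGFP OE. The sum was 31.3 ± 0.975 TPM with the POLR3G ASO, 33.7 ± 1.63 with the POLR3G siRNA, and 13.8 ± 1.01, 16.6 ± 0.404 and 17.0 ± 1.49 with siE4, siE6 and siE8. Each knockdown was thus below its control without overlap, at 73.7%, 61.9%, 24.1%, 29.1% and 29.7% of it (exact 2-sided permutation test p = 0.1, the smallest that 3 against 3 allows). Over POLR3G-201, POLR3G-204, POLR3GL-201 and POLR3GL-202 alone the sums were 68.5%, 55.3%, 18.2%, 21.7% and 18.8% of control. These transcripts are called the full-length set below, although POLR3GL-201 lacks a coding exon. In THP-1 the sum was 49.9 ± 1.25 TPM with DMSO.

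POLR3GL made up 58.0 to 65.5% of the summed TPM in the 4 HEK293T control groups. It fell to 19.5% ± 1.61, 18.8% ± 3.63 and 15.1% ± 0.735 with siE4, siE6 and siE8, so POLR3G was the more abundant paralog in each of these 9 libraries. The POLR3G ASO moved the share from 65.5% ± 5.15 to 71.9% ± 3.30 without overlap, and the siRNA from 61.0% ± 3.37 to 62.3% ± 0.992 with overlap (exact permutation p = 0.1 and 0.8). Over the full-length set, which holds POLR3GL-201, these shares moved from 75.5 to 87.9% and from 67.4 to 79.5%. In THP-1 the POLR3GL share was 97.9 to 99.1% in the 4 group means.

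**Figure D4:**
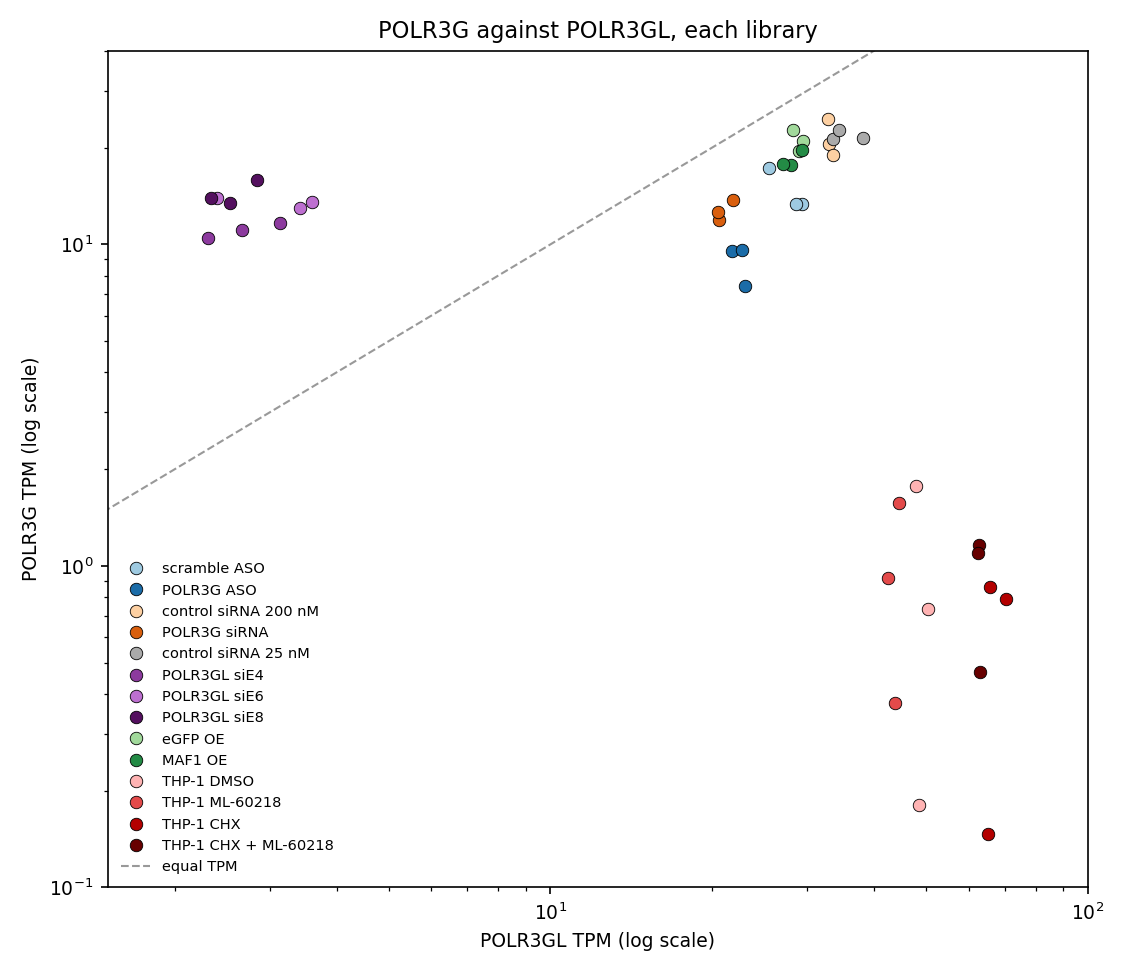
TPM of POLR3G against TPM of POLR3GL in each of the 42 libraries (log axes, 1 colour per group, dashed line at equal TPM). HEK293T controls sit below the line, the POLR3G agents lie lower on both axes, the POLR3GL siRNAs are the only libraries above the line, and THP-1 libraries lie at the right with POLR3G at or under 1.77 TPM.

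MAF1, the repressor, responded to the POLR3G siRNA and not past the threshold to the ASO. MAF1-201, its main transcript, had 1677, 1822 and 1783 reads with the control siRNA and 228, 311 and 309 with the POLR3G siRNA. The groups were far apart, with a fall of 6.04-fold (log2 -2.60, SE 0.13, adjusted p = 3.92e-05). MAF1-205 fell 2.52-fold in the same libraries (adjusted p = 0.00767), and its share of MAF1 TPM was 17.4, 20.8 and 12.4% against 11.5, 6.85 and 9.48%. With the ASO, MAF1-201 had 1160, 1218 and 1142 reads against 1354, 1345 and 1289 (log2 -0.15, SE 0.04, adjusted p = 0.0439), a call that was lost on leaving out any 1 of the 6 libraries. The whole gene did not pass with the ASO (log2 -0.02, SE 0.03, adjusted p = 0.611), and its sign turned on the TPM scale (log2 0.24, adjusted p = 0.00353), where the median of all genes also lay at 0.17. At the gene level MAF1 fell 5.07-fold with the siRNA (log2 -2.34, SE 0.05, adjusted p = 1.18e-09), and the 2 agents differed by 2.30 on the log2 scale (SE 0.06, adjusted p = 3.31e-12), where 66.8% of all genes differed.

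Under the POLR3GL siRNAs the MAF1 total moved little, but its transcripts did not move alike. MAF1-205, the form with 858 coding bases, had 255, 237 and 275 reads in controls and 488, 488 and 553 with siE4. All siE4 libraries were above all controls, a rise of 2.09-fold (log2 1.07, SE 0.22, adjusted p = 0.00791), while MAF1-201 fell 1.33-fold (adjusted p = 0.00709). The MAF1-205 share was 10.3, 8.39 and 10.7% in controls and 23.0, 22.8 and 23.1% with siE4. It was 8.10% ± 3.03 with siE6 and 11.1% ± 0.452 with siE8, and the siRNAs were not tested against each other at this transcript. The usage test did not call it (adjusted p = 0.159).

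MAF1-204, which has another first exon and a shorter 3′ end, moved with the other siRNAs. It had 34.2, 52.0 and 30.8 reads in controls, 46.4, 33.8 and 20.3 with siE4, 159, 179 and 141 with siE6, and 155, 107 and 187 with siE8. The siE6 and siE8 libraries lay above every control, with rises of 3.69-fold (log2 1.88, SE 0.37, adjusted p = 0.00497) and 4.14-fold (log2 2.05, SE 0.37, adjusted p = 0.00359), and siE4 overlapped the control. Its share went from 1.98% ± 0.465 to 7.13% ± 0.496 and 7.70% ± 1.97. Since MAF1-204 has 3 stretches of its own and MAF1-205 has 0, whether these are changes of the transcripts named or of how reads were assigned was not tested. As a gene, MAF1 fell with siE4 (log2 -0.18, SE 0.06, adjusted p = 0.0174), did not pass with siE6 or siE8 (log2 0.09 and 0.08, adjusted p = 0.202 and 0.261), and was lower with siE4 than with siE6 or siE8 (log2 -0.26 and -0.25, adjusted p = 0.00109 and 0.00152). Without the second control library siE6 and siE8 both passed (log2 0.16 and 0.15, adjusted p = 0.0152 and 0.0221). The siE4 call was lost without the second siE4 library (log2 -0.15, adjusted p = 0.0749) or without the second control library (log2 -0.11, adjusted p = 0.0818).

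MAF1 overexpression appeared almost wholly as MAF1-204. That transcript had 114709, 110245 and 132183 reads with MAF1 OE and 33.8, 28.7 and 106 with eGFP OE. It made up 98.4% ± 0.128 of MAF1 TPM against 4.53% ± 3.78 (log2 10.96, SE 0.45, adjusted p = 0.0179), and transcript usage was called for MAF1-204 upward and for MAF1-201 and MAF1-205 downward. MAF1-201 itself had 2055, 1812 and 1980 reads against 1420, 1286 and 1085, groups that did not overlap (log2 0.56, SE 0.06, adjusted p = 0.327). MAF1-205 had 90.3, 98.8 and 114 reads against 179, 221 and 200 (log2 -1.06, SE 0.16, adjusted p = 0.436), also without overlap. The coding sequence shared by MAF1-201 and MAF1-204 means that expressed MAF1 reads could be counted under either, and their part in these values was not tested. The gene rose 74.7-fold (log2 6.22, SE 0.06, adjusted p = 2.91e-10).

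Neither paralog passed the test under MAF1 OE (POLR3G log2 -0.20, SE 0.10, adjusted p = 0.548, and POLR3GL log2 -0.03, SE 0.04, adjusted p = 0.828). The POLR3G sum of full-length transcripts was 10.5 ± 1.06 TPM against 12.5 ± 1.92. In this experiment 0.0386% of genes, 0.00337% of transcripts and 0.182% of transcripts by usage were called in all, and of the 12 member transcripts tested 1 was called at the transcript level (5 at an unadjusted p under 0.05) and 3 by usage. MAF1-202 had 182, 126 and 152 reads with MAF1 OE and 0 in the 3 eGFP libraries, and it did not pass (adjusted p = 0.119). The call of MAF1-204 was lost on leaving out 5 of the 6 libraries in turn.

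**Figure D5:**
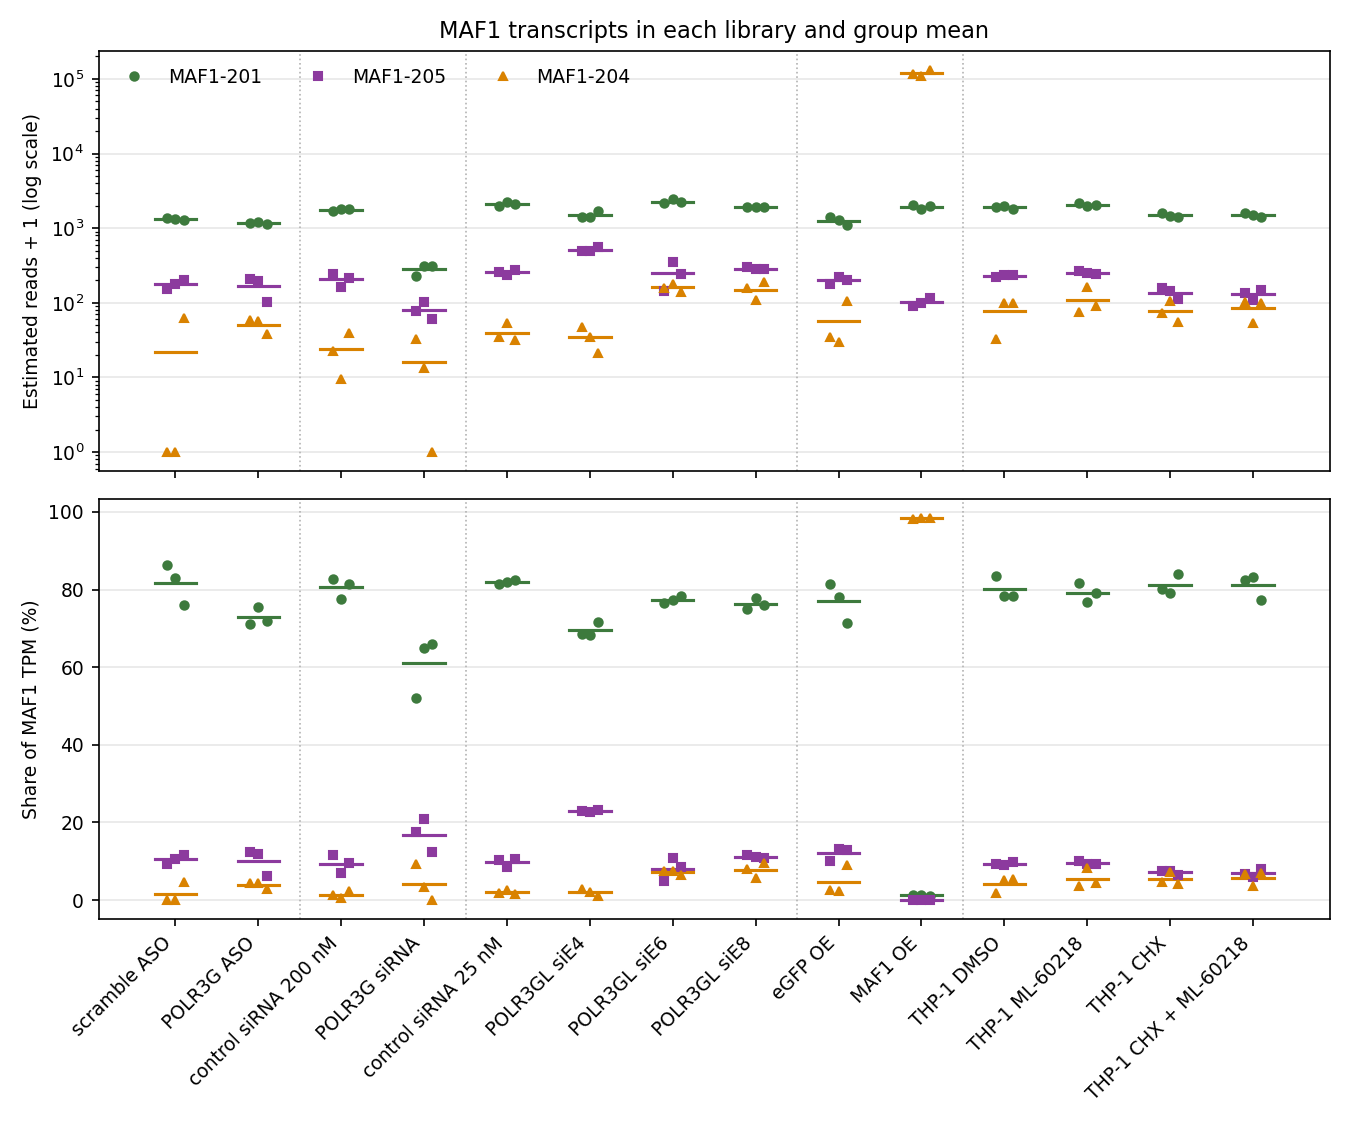
Estimated reads plus 1 (upper panel, log axis) and share of MAF1 TPM in % (lower panel) of 3 MAF1 transcripts in each of the 42 libraries (points) with group means (bars). MAF1-204 has 110245 reads or more in the MAF1 OE libraries, MAF1-201 is lowest with the POLR3G siRNA, and MAF1-205 holds 22.8 to 23.1% of MAF1 TPM with POLR3GL siE4.

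In THP-1, 2 of the 3 genes were called with cycloheximide (POLR3GL up and MAF1 down) and 1 of 3 with ML-60218 (POLR3GL down), where 66.0% and 15.5% of all genes were called. POLR3G did not pass with CHX (log2 -0.60, SE 0.93, adjusted p = 0.594), and its change was 0.25 without the second DMSO library. With CHX, POLR3GL-202 had 2310, 2325 and 1989 reads against 1683, 1787 and 1665 with DMSO, without overlap (log2 0.34, SE 0.04, 1.27-fold, adjusted p = 5.37e-05). POLR3GL-201 moved the other way, with 81.6, 87.1 and 83.1 reads against 127, 140 and 121 (log2 -0.64, SE 0.21, adjusted p = 0.0464), a call lost on leaving out 8 of the 12 libraries in turn. POLR3GL-201 also lost it in edgeR with DESeq2's size factors, without the filter and with the replicate block (adjusted p = 0.0503, 0.102 and 0.0792), and by limma on log2(TPM + 0.1) (0.136). Its share of POLR3GL TPM was 10.2% ± 0.284 with DMSO and 5.55% ± 0.467 with CHX, and the usage test did not call it (adjusted p = 0.78). MAF1-201 fell 1.28-fold and MAF1-205 1.71-fold with CHX (adjusted p = 0.000411 and 0.00117). On the TPM scale MAF1-201 did not pass (log2 -0.093 by limma, adjusted p = 0.144). At the gene level POLR3GL rose (log2 0.19, SE 0.03, adjusted p = 0.000382) and MAF1 fell (log2 -0.46, SE 0.03, adjusted p = 3.08e-08). On the TPM scale POLR3GL went from 49.0 ± 1.34 to 67.1 ± 2.98, and there the median of all genes was shifted by 0.30 on the log2 scale.

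With ML-60218 alone POLR3GL fell slightly as a gene, from 62.9, 60.8 and 60.4 CPM to 57.2, 54.2 and 55.2 (log2 -0.15, SE 0.04, adjusted p = 0.0115). That call was lost without the first DMSO library (log2 -0.13, adjusted p = 0.0526) or without the second ML-60218 library (log2 -0.14, adjusted p = 0.0541). With ML-60218, 0 of 9 member transcripts were called by edgeR (1 at an unadjusted p under 0.05, and 1 by limma on log2(TPM + 0.1)). MAF1 did not pass (log2 0.04, adjusted p = 0.51). Under CHX, ML-60218 gave 0 calls among the 3 genes and the 9 transcripts, with 0 at an unadjusted p under 0.05 for both, and 0 by DESeq2 for the genes. The interaction of ML-60218 with CHX was called for 0 of the 3 genes (2 at an unadjusted p under 0.05, and 0 by DESeq2). Of all genes 16.5% were called with ML-60218 under CHX and 6.56% for the interaction, and of all transcripts 1.19% with ML-60218, 28.6% with CHX and 1.02% with ML-60218 under CHX. ML-60218 and CHX share the DMSO libraries.

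The partners of RPC7 in the heterotrimer did not follow the paralogs down. POLR3F rose with all 5 knockdown agents: log2 0.36 with the POLR3G ASO, 0.80 with the POLR3G siRNA, and 0.91, 1.02 and 0.96 with siE4, siE6 and siE8 (adjusted p between 2.22e-08 and 0.00197). With the POLR3G siRNA it was at 32.3 ± 0.151 CPM against 18.6 ± 1.62, and the response was smaller with the ASO (difference -0.46 on the log2 scale, SE 0.10, adjusted p = 0.00143). POLR3C rose with the ASO, the POLR3G siRNA, siE4 and siE8 (log2 0.25, 0.39, 0.34 and 0.50, adjusted p between 0.000834 and 0.0114), and with siE6 it did not pass (log2 0.06, adjusted p = 0.615). With CHX, POLR3C rose from 76.3 ± 6.22 to 145 ± 4.07 CPM (log2 0.93, adjusted p = 2.98e-09) and POLR3F rose 1.37-fold (log2 0.45, SE 0.08, adjusted p = 0.0002). Neither passed with MAF1 OE or ML-60218.

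A list of 33 other genes of the Pol III machinery (subunits, TFIIIA, TFIIIB, TFIIIC and SNAPC genes and SSB), of which 32 could be tested, gives the surroundings. With the POLR3G siRNA 24 rose and 6 fell, from SNAPC4 (log2 1.20) to POLR3E (-1.20), so 93.8% of the list was called against 74.9% of all genes. With the ASO 12 rose and 9 fell, from SNAPC5 (log2 1.17) to GTF3C1 (-0.33), 65.6% against 68.5%. The POLR3GL siRNAs gave 15 up and 9 down with siE4, 19 and 3 with siE6, and 22 and 5 with siE8, which is 75, 68.8 and 84.4% of the list against 54.9, 63.0 and 57.7% of all genes. The list's median log2 change was -0.0072 with the ASO, 0.44 with the POLR3G siRNA, and 0.043, 0.32 and 0.24 with siE4, siE6 and siE8, where the medians of all genes lay between -0.021 and -0.0018. POLR3F had the largest called rise with each, and SNAPC2 (log2 -0.94), SNAPC3 (-0.61) and GTF3C2 (-0.94) the largest called fall. MAF1 OE gave 0 calls in this list (3 at an unadjusted p under 0.05, and 0 by DESeq2). In THP-1, 14 rose and 12 fell with CHX (81.2% of the list against 66.0%), 1 rose and 3 fell with ML-60218 (12.5% against 15.5%), and 3 rose and 5 fell with ML-60218 under CHX (25% against 16.5%). A length offset left 0 and 1 with ML-60218, and 1 and 3 under CHX. The list's median was 0.070 with CHX, -0.014 with ML-60218 and -0.00023 with ML-60218 under CHX, where those of all genes were -0.0056, -0.0086 and -0.0048. With ML-60218, SNAPC4 had the largest called fall (log2 -0.94 without and -1.03 with CHX).

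Genes beside the members on the chromosome were listed as well. LYSMD3, next to POLR3G, rose with all 5 knockdown agents (log2 0.44 with the ASO, 0.65 with the siRNA, and 1.06, 1.04 and 0.74 with siE4, siE6 and siE8). With these agents 54.9 to 74.9% of all genes were called. LYSMD3 also rose with CHX in THP-1 (log2 0.35), where 66.0% were called. MBLAC2 overlaps POLR3G on the opposite strand and fell with the ASO and the POLR3G siRNA (log2 -0.41 and -0.72). It fell with siE6 and with CHX too (-0.23 and -0.37) but rose with siE4 and siE8 (0.42 and 0.78). TXNIP, next to POLR3GL, fell with siE4 and siE6 (log2 -1.94 and -0.50) and rose with siE8 (0.36). It was called where POLR3GL was not the target as well. TXNIP rose with the POLR3G ASO and with CHX (log2 0.91 and 1.01). It fell with the POLR3G siRNA and with ML-60218 without and with CHX (log2 -0.23, -0.41 and -0.39). SHARPIN overlaps MAF1 on the opposite strand and did not pass with the POLR3G siRNA (log2 0.11, adjusted p = 0.191) or with MAF1 OE (log2 -0.03, adjusted p = 0.897). Of the other genes beside MAF1, GPAA1 fell and CYC1 rose with the POLR3G siRNA (log2 -0.29 and 0.14, adjusted p = 0.00746 and 0.0146). WDR97 and HGH1 did not pass with it (log2 -0.10 and 0.06, adjusted p = 0.709 and 0.445). All 4 were called with other agents as well. GPAA1 fell with the ASO, siE4 and CHX (log2 -0.76, -0.60 and -0.41). CYC1 fell with the ASO and rose with siE6 (-0.11 and 0.26). WDR97 rose with the ASO and siE4 (1.11 and 1.08). HGH1 fell with siE4 (-0.60) and rose with siE6, siE8 and CHX (0.93, 0.27 and 0.33). The part of these genes in the members' values was not tested.

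By Pearson's r of mean log2 CPM over the groups, among 11717 genes, the genes most like POLR3G over 14 groups were PCOLCE (r = 0.992), PLXNA2 (0.991) and CDHR1 (0.990). For POLR3GL they were CCDC180 (r = 0.914), MEGF6 (0.895) and LIMD1 (0.887), and for MAF1 over 13 groups, without MAF1 OE, they were RPL13 (r = 0.958), TRIR (0.951) and RPL37 (0.948). The groups of 1 line share that line, and over the HEK293T groups alone 0, 0 and 1 of these 3 names came back for POLR3G, POLR3GL and MAF1. The closest there were DNAJC6 (r = 0.953), HS3ST3B1 (0.955) and LZTS3 (0.986).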

How the data were processed

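Poly(A) RNA was prepared with a stranded mRNA library kit and sequenced as paired reads, per the labels' protocols. Per the submitters' processing notes, bcl2fastq 2.20, Trim Galore, Salmon, DESeq2 and the build hg38 were used. Versions of the other tools, and the annotation release, were not stated there. The deposited table holds Salmon's estimated counts and TPM per transcript and library, per the file headers. Estimated counts are Salmon's assignment of reads among transcripts, so transcripts that share most of their sequence can trade reads.

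Transcripts were named from GENCODE 29 by identifier without version: 158359 of 194142 matched (81.6%), with 91.1% of reads. The versions of POLR3G-201, POLR3GL-202 and MAF1-201 differ from GENCODE 29, so their ends may differ. For gene-level fits these counts were added over a gene's transcripts, then rounded to whole numbers. Each experiment was fitted with edgeR 4.0.16 (filterByExpr, TMM, glmQLFit and glmQLFTest), and transcript usage with diffSpliceDGE, with Benjamini-Hochberg adjustment over all features tested. The standard error is the size of the log2 fold change divided by the root of F. CPM was computed from library totals of the named transcripts, scaled by TMM factors over all 42 libraries. R 4.3.3, limma 3.58.1, DESeq2 1.42.0 and Python 3.11.15 were used, and fits were tested on simulated data.

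Named were the members and all their transcripts, POLR3C and POLR3F, the Pol III list's counts with its called gene of largest rise and fall, neighbouring genes, and the 3 genes most like each member at a mean of at least 5 CPM. Members and lists were chosen with earlier results of these data known. Of the neighbouring genes, LYSMD3, MBLAC2, TXNIP, SHARPIN, GPAA1, CYC1, WDR97 and HGH1, and the comparisons given for them, were picked for the text after their values were seen. Main fits did not pair libraries by replicate number: same-numbered deviations correlated at -0.22 to 0.21, and 0 of 5 experiments had every correlation over 0.1. In 3 pairs of groups each library matched its own number best, at correlations of 0.020 to 0.16. These were eGFP OE with MAF1 OE, DMSO with CHX, and ML-60218 with both agents. The correlations do not settle whether libraries were paired. Alternatives were DESeq2, its size factors, no filter, a stricter threshold, a length offset, limma on log2(TPM + 0.1), all HEK293T libraries in 1 fit, a replicate block and leaving out each library. 2 alternatives were added after seeing the data: the full-length set (POLR3G-201, POLR3G-204, POLR3GL-201 and POLR3GL-202) and POLR3G without POLR3G-207.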

Additional observations from a re-analysis of the deposited data

Results flagged for a closer look

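Differences between agents that passed edgeR's quasi-likelihood test of the difference itself are given as log2 values. The MAF1 response to the POLR3G ASO was 2.30 above that to the POLR3G siRNA, while the POLR3F response was lower with the ASO (-0.46). MAF1 was lower with POLR3GL siE4 than with siE6 (-0.26) and siE8 (-0.25). POLR3G was lower with siE4 than with siE6 (-0.28) and higher with siE6 than with siE8 (0.37). The first call was lost with all HEK293T libraries in 1 fit (adjusted p = 0.0837) and the second with a length offset (adjusted p = 0.525). POLR3GL was higher with siE6 than with siE8 (0.36), with overlapping libraries. That call was lost in 6 of 12 cases with 1 library left out, with the replicate block (adjusted p = 0.0602) and by limma on log2(TPM + 0.1) (adjusted p = 0.172). POLR3C was higher with siE4 than with siE6 (0.28) and lower with siE6 than with siE8 (-0.44). The 3 siRNAs share their control libraries, and the ASO and the siRNA were run as separate experiments with their own controls.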

How the results depend on the processing

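Over 9 comparisons (each agent against its control, and ML-60218 under CHX) the 3 genes give 27 results, of which 16 were called. All 27 kept direction and side of the threshold under DESeq2, DESeq2's size factors, no filter and the replicate block, 18 of 18 did with all HEK293T libraries in 1 fit, and 256 of 270 did with 1 library left out. Whether the replicate numbers pair the libraries is not settled by their correlations. With the block, POLR3G siE4 minus siE6 was called at -0.28 (it lost its call with all HEK293T libraries in 1 fit, adjusted p = 0.0837), POLR3GL siE6 minus siE8 lost its call (0.36, adjusted p = 0.0602), and with MAF1 OE the called member transcripts went from 1 to 0 and the usage call of MAF1-205 was lost (adjusted p = 0.0599). The added fit without POLR3G-207 turned POLR3G with ML-60218 to -0.038. A length offset turned MAF1 with the ASO to 0.057, POLR3G siE4 minus siE8 to -0.20 and MAF1 siE6 minus siE8 to -0.00222, and POLR3G siE6 minus siE8 lost its call (0.070, adjusted p = 0.525). The TPM scale turned POLR3G in ASO minus siRNA to 0.011, in siE4 minus siE8 to -0.38 and in siE6 minus siE8 to -0.092, MAF1 with the ASO to 0.24, with siE6 to -0.076 and in siE6 minus siE8 to -0.16, and MAF1-201 with the ASO to 0.074. Of these, POLR3G siE4 minus siE8, MAF1 with the ASO and MAF1 siE6 minus siE8 passed by limma (adjusted p = 0.000685, 0.00353 and 0.0461). The cause was not tested. On that scale the median of all genes moved by -0.22 to 0.38. POLR3GL with ML-60218 lost its call at an adjusted p under 0.01 (-0.15) and with the length offset (-0.14), and MAF1 with siE4 at 0.01 (-0.18). On the TPM scale 2 member transcripts were called with CHX, 2 with MAF1 OE, 1 with ML-60218 and 7 with siE4, against 4, 1, 0 and 4.

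The change in the POLR3GL share was 6.32 points with the ASO, and 16.3 over estimated counts and 12.5 over the full-length set, which includes POLR3GL-201. It was 1.33 points with the POLR3G siRNA, then 11.5 and 12.1. With siE4 it was -42.3, then -37.8 and -46.7, and -45.2 over protein-coding transcripts. With siE6 it was -43.0, then -38.3 and -47.3, and with siE8 -46.7, then -38.3 and -44.5. The paralog sum over counts was 54.5, 53.5, 29.9 and 39.9% of control with the ASO, the POLR3G siRNA, siE4 and siE6. Those counts were not scaled to library totals, so these percentages also hold differences in depth. Over the full-length set the paralog sum in TPM was 68.5, 55.3, 18.2, 21.7 and, with siE8, 18.8%.

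With 1 library left out, the POLR3GL share change with the POLR3G siRNA ran from -0.51 to 2.80 points. MAF1 ran from -0.23 to -0.11 with siE4, 0.032 to 0.16 with siE6, 0.023 to 0.15 with siE8 and -0.017 to 0.038 in siE6 minus siE8. POLR3G in THP-1 ran from -1.08 to 0.25 with CHX, -0.77 to 0.86 with ML-60218, -0.25 to 0.73 with ML-60218 under CHX and -0.64 to 0.99 for the interaction. POLR3GL ran from -0.16 to -0.13 with ML-60218 and -0.049 to 0.011 under CHX. Called member transcripts ran from 0 to 1 with MAF1 OE and with ML-60218, and by usage from 0 to 1 with the ASO. POLR3GL-203 and POLR3GL-204 with the POLR3G siRNA lost their calls in 5 of 6 cases each, POLR3GL-201 with siE8 in 7 of 12 and POLR3GL-204 with siE8 in 3 of 12. Over all genes, MAF1 OE gave 6 calls, 32 by DESeq2, 11 without a filter and 2 to 9 with 1 library left out. ML-60218 under CHX gave 2529, with 1469 under the length offset, 1625 on the TPM scale and 1644 without the third library of both agents, and the interaction gave 1006, then 456 and 382, and 620 without the first CHX library, 641 without the third and 648 without the second ML-60218 library. ML-60218 gave 2380, and 1520 without its second library. Depth limits POLR3G in THP-1, where POLR3G-204 had at most 77.9 reads.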
